A study of Ipomoea batatas with 12 samples.

Results

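Heat and drought were set directly against each other in sweetpotato (Ipomoea batatas), in the 6 libraries of plants given either stress alone out of the 12 libraries of the series. The members were chosen by their sample titles: HT1 to HT3 came from plants under heat stress (HT), and DR1 to DR3 from plants whose nutrient solution held polyethylene glycol (PEG6000), which withholds water from the roots (DR). The other libraries, 3 of unstressed control plants (CK) and 3 of plants under drought and heat together (DH), gave no value to the difference between HT and DR. They entered only through the filter on low values and the estimate of the spread. All plants were of 1 genotype, the purple-fleshed cultivar Xuzishu 8, grown in the field, moved to Hoagland solution and then stressed in a growth chamber, while the CK plants stood in another chamber. The paper gives no temperature for the DR plants and does not say whether HT and DR plants shared a chamber. A difference between chambers therefore cannot be told apart from one between the stresses. Every library is a pool of RNA from leaves and storage roots over several sampling times, so a difference may lie in either tissue or at any time of the treatment, and fewer cells of a type cannot be told apart from less RNA per cell. The sources call the libraries biological replicates but do not say which plants went into each pool, so p-values measure the spread between these pools only.

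Plants answer the 2 stresses through partly separate routes. Heat unfolds proteins, which releases heat shock factors to switch on genes of heat shock proteins (HSPs): the small HSPs hold unfolding proteins in solution, and HSP70 proteins refold them with the use of ATP. Loss of water raises the hormone abscisic acid (ABA) and, with it, genes of protective proteins, sugars and inhibitors, while genes of photosynthesis are commonly held down under both stresses. Many genes answer to any stress, so a direct comparison asks which genes tell heat from drought when both groups are already far from the unstressed state.

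Transcript levels in FPKM (fragments scaled for transcript length and for the size of the library) were compared as log2(FPKM + 1), and a log2 difference in what follows is the mean under HT less the mean under DR on that scale, so that a positive value is higher under heat. Of 12295 genes tested, 2 were called higher under HT, which is 0.0163% of the genes tested, and 6 were called higher under DR, which is 0.0488% (limma, adjusted p under 0.05 and a log2 difference beyond 1). Without adjustment 898 genes had a p under 0.05, 500 of them higher under HT and 398 higher under DR. The median log2 difference over all genes tested was 0.23. The median standard error (SE) of a difference was 0.91, so that a gene needed a large difference to be called. The counts turned on scaling and on single libraries: upper-quartile scaling gave 2 genes higher under HT and 17 higher under DR, and quantile scaling gave 2 and 3. Without HT2 there were 23 and 10.

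The libraries of each group were unequal. Genes with an FPKM above 0 numbered 14425 to 20254 under HT and 16553 to 24184 under DR, and the 10 most abundant genes held 34.7% to 71.8% of the FPKM under HT and 54.9% to 75.3% under DR. The table of DR2 ends early and lacks 1519 loci with IDs beginning with MSTRG, which are loci assembled from the reads; of the genes tested, 1087 have no DR2 value and rest on DR1 and DR3 for drought. The tables give no read counts, so the depth behind a single value is unknown.

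Both genes that carry a symbol and passed the test were copies of SHSP-2, a small heat shock protein, and both were higher under drought. SHSP-2 (MSTRG.4626) was listed at 238 in DR1 and 405 in DR3, against 0 in HT1, 0 in HT2 and 0.17 in HT3. The log2 difference was -8.21 (SE 1.01, adjusted p = 0.00036, limma). The copy MSTRG.38747 was listed at 79.8 in DR1 and 152 in DR3 and at 0 in HT1, HT2 and HT3, with a log2 difference of -6.80 (SE 0.92, adjusted p = 0.00087, limma). Since heat libraries were listed at 0, these differences depend on the pseudocount and are no fold changes. DR2 lists neither locus, so that 2 drought libraries stand behind each value. Both copies were called with any CK, HT or DH library left out, at adjusted p-values up to 0.017. Within HT and DR each copy reached an FPKM of 1 only in DR1 and DR3, so DH libraries carried both past the filter. A filter of 6 libraries, or one applied within HT and DR, left both untested. Without DR1 or DR3 a single drought library remained, which was assumed to vary like the libraries of the other groups, so those fits (adjusted p = 0.008 and 0.035) say nothing of the spread under drought. Both were also listed at 0 in the 3 CK libraries, and under DH they had intermediate values, 45.5, 5.40 and 18.7 for MSTRG.4626 and 3.16, 1.04 and 4.81 for MSTRG.38747. Copies of near-identical sequence in a polyploid genome can share reads. The sequences of these 2 loci were not compared, so the split between them is uncertain.

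**Figure D1:**
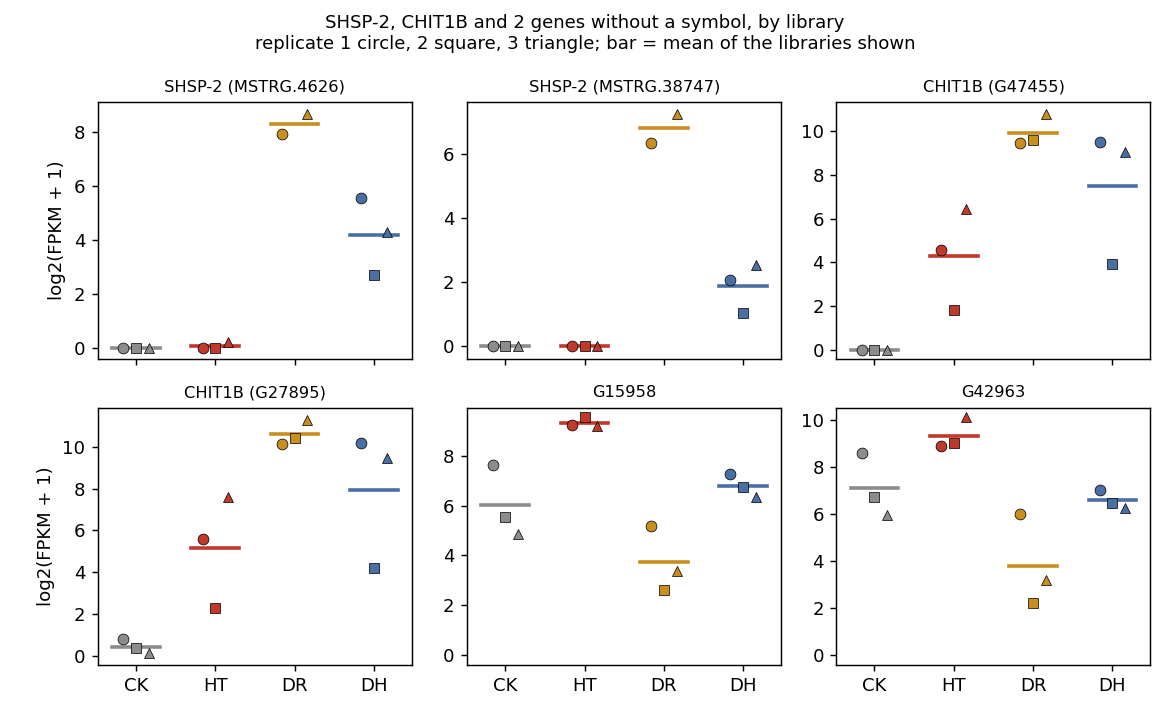
Log2(FPKM + 1) of the 2 SHSP-2 copies, the 2 CHIT1B copies and 2 genes without a symbol, with 1 point per library and a bar for the mean of the libraries that list the gene, in CK, HT, DR and DH. SHSP-2 sits at or near 0 in CK and HT and above 6 in DR1 and DR3 (DR2 lists neither copy); the CHIT1B points of HT lie below those of DR, and G15958 and G42963 lie highest in HT.

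The other 7 genes of the small heat shock protein list had positive log2 differences, opposite in sign to SHSP-2, and none of them passed the test. HSP15.7 (G27775), a small heat shock protein annotated as peroxisomal, had 163, 57.2 and 656 FPKM in HT1 to HT3 and 35.4, 1.16 and 10.8 in DR1 to DR3. Every heat library lay above every drought library, and the geometric mean was 23.9 times as high under HT (log2 difference 4.24, SE 1.15, adjusted p = 0.31, limma). HSP17.5-M (MSTRG.30592) had 34.3, 9.55 and 913 FPKM under HT and 0.76 and 4.52 in DR1 and DR3 (log2 difference 4.49, SE 1.40, adjusted p = 0.50, limma). The other HSP17.5-M copy, MSTRG.30591, had 39.0, 11.8 and 1067 under HT and 3.97 and 12 under DR, so that its groups overlapped. The 95% intervals of the differences were wide, 1.87 to 6.61 for HSP15.7 and 1.58 to 7.39 for MSTRG.30592.

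HSP21 (MSTRG.27569), the small heat shock protein of the chloroplast, was high under both stresses: 706, 49.1 and 720 FPKM under HT and 72.1 and 422 under DR, against at most 1.13 in CK (log2 difference 0.74, adjusted p = 0.89, limma). The copies of HSP17.4B had log2 differences of 2.17 (G39305) and 1.72 (MSTRG.37536), and HSP22 (G36033) had 1.92. Over the 9 genes of the list the median log2 difference was 1.92 (3.01 without HT2 and 1.25 without HT3), beside 0.23 over all genes; 2 were called, both higher under DR. Of the 3 members that all 6 libraries list, 1 was higher in every HT library than in every DR library, and over all genes listed in the 6 libraries 4.35% were. HT2 had the lowest heat value in 7 of the 8 members with unequal heat values. The study chose these genes on the same libraries by their difference from CK, so the counts are a description and no independent evidence.

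The chaperones that refold proteins showed the same order without passing the test. HSP70-5 (G13246), annotated as a heat shock 70 kDa protein, had 130, 22.1 and 132 FPKM under HT and 5.36, 3.23 and 18.1 under DR. HSP70 (G9639) had 43.0, 17.9 and 47.0 under HT and 8.73, 1.0 and 3.74 under DR. For both genes each heat library lay above each drought library, with log2 differences of 3.20 (SE 1.03, adjusted p = 0.52) and 2.92 (SE 0.90, adjusted p = 0.45, limma) and geometric means 10.6 and 10.3 times as high under HT. HSP90 (G17562) and CAL1 (G32946), a calreticulin that assists folding in the endoplasmic reticulum, stayed at or below 1.8 FPKM in all 6 libraries, with log2 differences of -0.26 and -0.49. The 2 regulators of the heat response had positive differences. MBF1C (G15814), a transcriptional coactivator that takes part in heat tolerance in Arabidopsis, had 2954, 2087 and 1073 FPKM under HT and 514, 489 and 677 under DR, with no overlap (log2 difference 1.76, SE 0.98, adjusted p = 0.69, limma). HSF24 (G19416), a heat shock factor, had 18.6, 3.33 and 33.5 under HT and 3.37, 1.44 and 5.68 under DR, so that HT2 lay just under DR1.

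**Figure D2:**
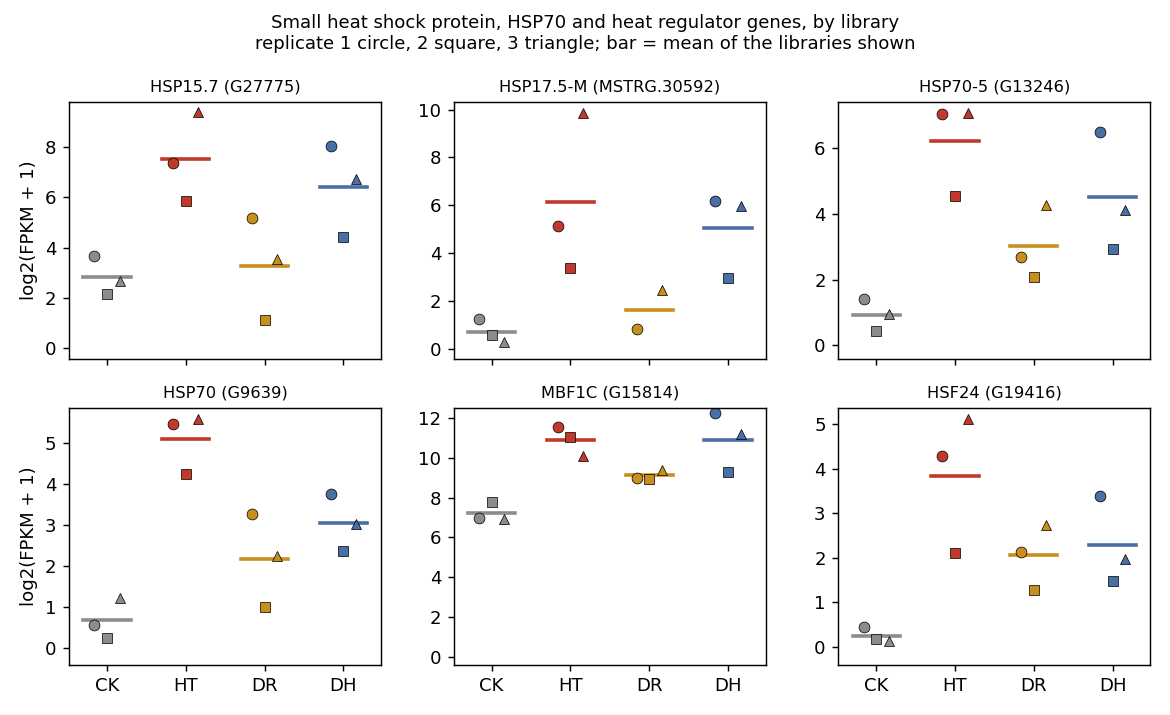
Log2(FPKM + 1) of 2 small heat shock protein genes, 2 HSP70 genes and 2 regulators of the heat response, with 1 point per library and a bar for the group mean. For HSP15.7, HSP70-5, HSP70 and MBF1C the 3 HT points lie above the DR points; none of these 6 genes passed the test, and HT2 (square) was the lowest heat library in all but MBF1C.

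The 2 genes called higher under HT carry no symbol in the tables used. G15958 had 606, 758 and 581 FPKM under HT and 35.7, 5.08 and 9.45 under DR, and CK had 198, 45.6 and 27.6, below every HT library but overlapping DR. The geometric mean was 53.8 times as high under HT (log2 difference 5.60, SE 0.98, adjusted p = 0.016, limma). G42963 had 480, 524 and 1115 under HT and 62.7, 3.73 and 8.25 under DR, with CK at 394, 105 and 61.3 (log2 difference 5.54, SE 1.04, adjusted p = 0.026, limma). The heat values of both genes lay close together and far above drought, whereas DR1 stood above DR2 and DR3. The call of G15958 was lost without HT1 (adjusted p = 0.087), DR2 (0.18) or DR3 (0.23), and that of G42963 without HT1 (0.14), HT3 (0.12), DR2 (0.29) or DR3 (0.38). Of the 4 genes without a symbol called higher under DR, the 2 with the largest difference were MSTRG.21000, at 304 in DR1 and 381 in DR3 against 3.88, 0 and 0.77 under HT, and MSTRG.45150, at 27.1 and 176 against 0 in every HT library. Their log2 differences were -7.38 (adjusted p = 0.0071) and -6.14 (adjusted p = 0.0027, limma). MSTRG.45150 reached an FPKM of 1 only in DR1, DR3 and DH1, so it passed the filter only through its high drought values. Without DR1, DR3 or DH1 it was not tested, and its p-value is no independent support. MSTRG.21000 lost its call without DR1 (adjusted p = 0.12) or DR3 (0.27). In all, 5 of the 6 genes called higher under DR are loci that DR2 does not list, while such loci made up 8.84% of the genes tested. With the test kept to genes that all 12 libraries list, no gene was called in either direction (limma, smallest adjusted p = 0.05), while 794 of 11208 had an unadjusted p under 0.05.

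Among genes with a symbol that all 6 libraries list, the copies of CHIT1B, a chitinase, had the largest log2 differences on the drought side. Chitinases cut chitin, a polymer of fungal walls, and many are induced by stress as well as by infection. CHIT1B (G47455) had 22.9, 2.53 and 87.6 FPKM under HT and 698, 767 and 1783 under DR. CHIT1B (G27895) had 47.1, 4.01 and 194 under HT and 1102, 1360 and 2479 under DR. Neither gene overlapped between the groups, and their geometric means were 57.3 and 46.6 times as high under DR. The log2 differences were -5.66 (SE 1.25, adjusted p = 0.12) and -5.42 (SE 1.31, adjusted p = 0.19, limma), short of the threshold. With a fit of the HT and DR libraries only, both passed (adjusted p = 0.0026 and 0.0043), as they did with upper-quartile scaling (0.015 and 0.028). G47455 also passed with the scaling that leaves out the 10 most abundant genes (0.031), with the median of ratios (0.047), with the replicate number as a block (0.043) and without CK1 (0.025) or DH2 (0.026), and G27895 without DH2 (0.047). Under the other alternatives neither copy passed, among them quantile scaling, array weights and the other pseudocounts and filters. In CK both genes were at 0.77 or below, so heat libraries also stood above CK. The third member, EP3 (MSTRG.17467), did not share the pattern, with 8.44, 0.29 and 10.2 under HT and 3.15 and 2.96 under DR (log2 difference 0.34, adjusted p = 0.95). The list's median was -5.42.

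Genes of chlorophyll synthesis lay on the drought side in all 6 cases, and none was called. CRD1 encodes a subunit of the cyclase that closes the fifth ring of chlorophyll. CRD1 (G16398) had 273, 48.8 and 178 FPKM under HT and 687, 888 and 1718 under DR. CRD1 (G16412) had 84.1, 20.0 and 70.8 under HT and 274, 361 and 651 under DR, and the third copy, G14909, had at most 0.14 under HT and 3.40 to 12.5 under DR. All 3 copies were without overlap, and geometric means were 7.61 (G16398) and 8.14 times (G16412) as high under DR. The log2 differences were -2.92, -2.99 and -2.70 (adjusted p = 0.64, 0.60 and 0.41, limma). CHLH, the large subunit of magnesium chelatase, which inserts magnesium at the branch point to chlorophyll, had 0, 0 and 0.71 under HT against 2.66, 2.12 and 23.7 under DR for the copy G26280. Its other copy MSTRG.39941 had -1.83, and GUN4 (MSTRG.41460), which stimulates magnesium chelatase, had -1.51. The median was -2.58. Of the 4 members listed in all 6 libraries, 4 were higher in every DR library than in every HT library, beside 6.34% of all genes so listed. In CK the 2 abundant CRD1 copies had 510 to 3504 FPKM, overlapping the drought libraries and above every heat library. For all 6 genes the CK mean was nearer to DR than to HT, beside 65.5% of all genes tested.

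All 6 genes of chloroplast carbon metabolism also had negative log2 differences (median -1.01), and none was called. The median was -0.37 without DR3, -0.66 without HT2, -1.90 without HT3 and -1.62 without DR2. One gene of the 6 was without overlap, beside 6.34% of all genes listed by the 6 libraries: At1g32060 (G1470), the phosphoribulokinase of the Calvin cycle, had 83.2, 60.4 and 94.0 under HT and 177, 174 and 649 under DR (log2 difference -1.79, SE 1.13, adjusted p = 0.72, limma). FBA2 (G42411), a fructose-bisphosphate aldolase of the chloroplast, had 0, 0 and 3.80 under HT and 2.66, 5.71 and 45.3 under DR (-2.63, adjusted p = 0.64), and CSP41A (G36681), an RNA-binding protein of the chloroplast, had -1.31. Genes of chlorophyll breakdown did not follow: the copies of PAO, the pheophorbide oxygenase that opens the chlorophyll ring, had -1.18 (G37287) and 0.03 (G37418).

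Every pool holds both tissues, so marker genes of leaf and storage root were summed by library. The 9 leaf marker genes listed in all 12 libraries, which are genes of chlorophyll synthesis and of the chloroplast and include the CRD1 copies above, summed to 462, 138 and 399 FPKM in HT1 to HT3, to 1175, 1445 and 3162 in DR1 to DR3 and to 1159 to 7388 in CK. The heat and drought sums did not overlap. All 11 leaf markers tested had a negative log2 difference, with a median of -1.79, which was -0.45 without DR3. Of the 9 that all 6 libraries list, 5 were without overlap, beside 6.34% of all such genes. These are the CRD1 copies, CHLH (G26280) and At1g32060, all described above, while both CP29B copies, GAPB and CSP41A overlapped. The abundant CRD1 copies weigh heavily in the sums, with 687 (G16398) and 274 (G16412) of the 1175 FPKM in DR1. The markers thus repeat the results of those genes and are no separate evidence. Of the markers summed, 1 to 3 were at 0 in each HT library and none in any DR library. The 4 storage root genes, all of starch metabolism, summed to 3.01, 20.2 and 1.85 under HT and 45.3, 6.45 and 12.4 under DR, with overlap. The part of tissue share in the differences of chloroplast genes was not tested.

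**Figure D3:**
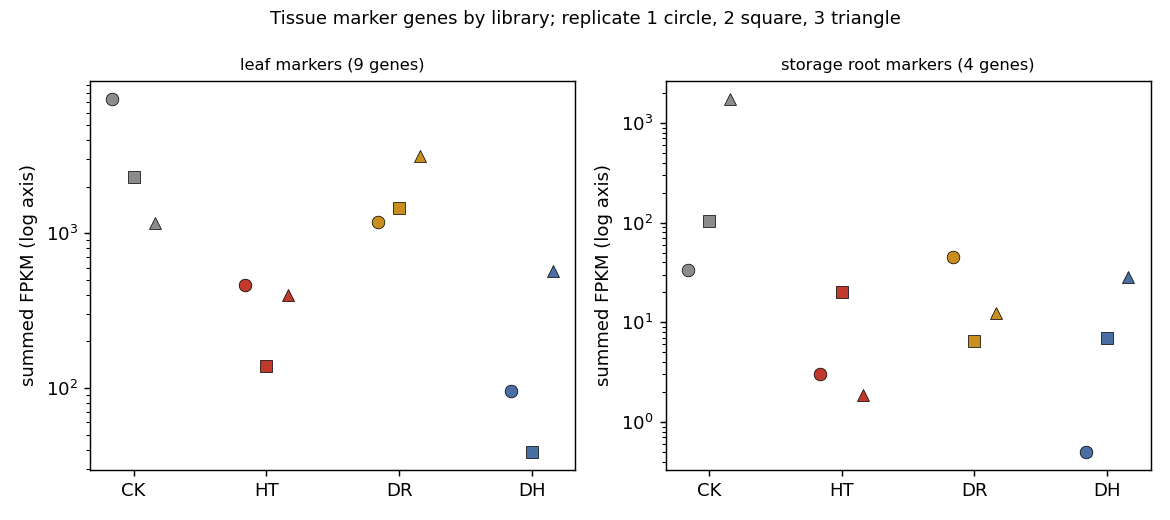
Summed FPKM of 9 leaf marker genes and 4 storage root genes in each library, on log axes, with 1 point per library in CK, HT, DR and DH. The leaf sums of HT (138 to 462) lie below those of DR (1175 to 3162), while the root sums of HT and DR overlap.

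Other genes with a symbol were named for a small p on the drought side and did not pass the test. Apart from TGA6, which DR2 does not list, they were higher in every drought library than in every heat library. So were 6.34% of all genes listed by the 6 libraries, and a choice by small p favours such genes. RAMDAZC7 (G35594), annotated as a cysteine proteinase inhibitor, had 0, 0 and 0.81 FPKM under HT and 7.25, 5.39 and 24.7 under DR (log2 difference -3.18, SE 0.72, adjusted p = 0.13, limma). ARGAH1 (G7764), an enzyme of arginine breakdown that releases urea, had 0, 0 and 1.68 under HT and 2.73, 6.42 and 14.9 under DR (-2.45, SE 0.69, adjusted p = 0.38). RAMDAZC7 passed with upper-quartile scaling (adjusted p = 0.025), quantile scaling (0.048), the replicate block (0.045) and array weights (0.024), and ARGAH1 with array weights (0.042). CK had at most 0.31 FPKM for either gene, so that the heat libraries other than HT3 were as low as CK. RAMDAZC7 reached an FPKM of 1 in no library but DR1 to DR3, so it passed the filter only through the group where it is high. Its lack of overlap follows from the filter, and its p-values are no independent support. ARGAH1 reached that level only in HT3 and DR1 to DR3, so it too needed its drought values to pass the filter. The p-values of ARGAH1 are likewise no independent support. R40C1 (G3598) had 28.7, 7.03 and 95.2 under HT and 225, 478 and 753 under DR, with a geometric mean 16.1 times as high under DR (-3.93, SE 1.08, adjusted p = 0.35). AMT1-2 (G24043), a transporter that takes up ammonium, had 11, 2.30 and 10.2 under HT and a narrow 102, 115 and 116 under DR, with CK spread from 10.1 to 591 (-3.87, SE 1.14, adjusted p = 0.42). TGA6 (MSTRG.21623), a bZIP transcription factor that acts with salicylic acid signals in Arabidopsis, had 0, 0 and 1.39 under HT and 4.31 and 38.6 in DR1 and DR3 (-3.44, adjusted p = 0.43).

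Genes of jasmonate synthesis and lipoxygenases, which make oxygenated fatty acid signals, all had a negative log2 difference, with a median of -2.35, and none was called. OPR3, which reduces the jasmonate precursor in the peroxisome, had 10.7, 2.54 and 2.21 under HT and 10.6, 49.5 and 32.4 under DR for G11747, and 25.5, 6.55 and 8.90 against 23.1, 117 and 76.2 for G20440. In both copies HT1 and DR1 were nearly equal and the other libraries lay apart. LOX2.1 (G9582) and LOX1.5 (MSTRG.8903), the lipoxygenases of the list, had -2.29 (adjusted p = 0.68) and -3.40 (adjusted p = 0.62, limma). LOX1.5 had 1.42, 1.98 and 5.76 under HT against 31.5 and 44.8 in DR1 and DR3. The list was split in its place against CK. For OPR3 the CK means of log2(FPKM + 1), 6.56 (G11747) and 7.67 (G20440), lay above those of DR, 4.75 and 5.92. For LOX2.1 and LOX1.5 the CK means, 0.23 and 1.62, lay below those of DR, 3.77 and 5.27.

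Genes tied to ABA and water loss did not separate the 2 stresses in 1 direction. EDL3 (MSTRG.34959), an F-box protein that acts in ABA signalling in Arabidopsis, had 285, 13.4 and 62.9 FPKM under HT and 357 and 697 in DR1 and DR3, against at most 1.33 in CK (log2 difference -2.96, SE 1.33, adjusted p = 0.68, limma). CYP707A2 (MSTRG.35318), which breaks down ABA, had -2.14. SRC2 (MSTRG.43049) and RAB28 (MSTRG.10419), a late embryogenesis abundant protein, had 1.16 and 1.0. SRC2 had 1453, 58.8 and 404 under HT and 103 and 207 under DR. Of the raffinose genes, GOLS2, which makes galactinol, had -0.97 (G19634) and -0.01 (G45635), and RFS6, a raffinose synthase, had 0.93 (G41031) and 1.05 (MSTRG.31046). None of these 8 genes was called.

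Some abundant genes had small differences between heat and drought, with wide intervals, while both stresses stood far above CK. RAP2-3 (G11018), an ethylene response factor, had 827, 1370 and 186 FPKM under HT and 836, 363 and 603 under DR, against 7.71 to 17.9 in CK. The log2 difference was 0.07, with a 95% interval of -1.99 to 2.13. ERF071 (G13450), of the same family, had 119, 255 and 22.5 under HT and 125, 42.0 and 106 under DR (0.11, interval -2.01 to 2.22). HPD (G38888), which acts in the breakdown of tyrosine and feeds tocopherol synthesis, had 891, 175 and 256 under HT and 318, 153 and 337 under DR (0.42, interval -1.67 to 2.52). HGO (G234), the next enzyme of that route, was less abundant, with 5.25, 0.29 and 40.4 under HT and 9.23, 10.2 and 46.9 under DR. Its log2 difference was -1.34 (interval -3.75 to 1.06), and HT2 lay below CK3 (3.77). The intervals are wide and do not show that the levels were equal.

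The glyoxylate cycle turns fatty acids into sugars. MLS (G42670), its malate synthase, had 2576, 138 and 451 FPKM under HT and 931, 1524 and 1408 under DR (log2 difference -1.21, interval -3.56 to 1.14). ICL2, its isocitrate lyase, had -1.70 for the abundant copy G23318 and -2.40 for G23306, and ACX2 (G20012), an acyl-CoA oxidase of the peroxisome, had -0.02. All 4 genes of the list overlapped between the groups. The beta-amylase BAM1, which degrades starch in the chloroplast, had -1.52 (G29406), -0.98 (MSTRG.8438) and -0.91 (G15055).

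Wall hydrolases, which cut wall polysaccharides, lay on both sides, 5 of 10 genes each, and none was called. BGAL1 (G996), a beta-galactosidase, had 20.4, 0.20 and 82.4 under HT and 0.05, 0.53 and 3.88 under DR (log2 difference 2.70, SE 1.09, adjusted p = 0.64, limma). The 3 copies of the beta-xylosidase BXL1 all had positive differences, 0.95 (G32809), 1.99 (G14317) and 2.40 (G32815), and for the last the values were 119, 0.48 and 154 under HT and 4.65, 5.97 and 3.72 under DR. In BGAL1 and in all 3 BXL1 copies, HT2 lay below the middle drought library whereas HT1 and HT3 lay above every drought library. Without HT2, BGAL1 and BXL1 (G32815) were called higher under HT, at log2 differences of 4.41 (adjusted p = 0.039) and 4.58 (adjusted p = 0.049). On the other side, gluA (G9941), a beta-glucosidase, had 33.0, 3.32 and 22.5 under HT and 29.3, 71.8 and 283 under DR (-2.50, adjusted p = 0.68). UVR3 (MSTRG.45901), a photolyase that repairs DNA after ultraviolet light, lay outside these groups, with 117, 90.9 and 17.6 under HT and 4.36 and 7.80 under DR (3.10, SE 1.13, adjusted p = 0.62).

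Genes of lignin, flavonoids, wall growth and starch were not called in any case. The median log2 difference was -0.29 for 7 genes of phenylpropanoid and lignin synthesis, -0.33 for 8 flavonoid genes, -0.29 for 3 genes of entry to the shikimate route, -0.21 for 10 expansins and xyloglucan transferases, 0.11 for 7 genes of cellulose and microtubules and -0.40 for 3 starch genes. With so few genes these medians moved with the settings: over 27 alternatives the starch median ran from -1.57 (without HT2) to -0.02 (without DR1), that of phenylpropanoid and lignin genes from -0.64 to 0.48, that of flavonoid genes from -0.74 to 0.12, that of shikimate entry from -0.94 to -0.02 and that of expansins and xyloglucan transferases from -1.09 to -0.16. The median log2 difference was -0.81 for 3 aquaporins, -0.14 for 3 genes of the methyl cycle, 0.05 for 4 polyphenol oxidases and 0.49 for 3 peptidases. In the flavonoid list CHSE (G16435), a chalcone synthase, had 0.23, 0.18 and 0.45 under HT and 9.10, 0.47 and 0.42 under DR, so that DR1 alone stood out. In the starch list AGPS1 (G24701), a subunit of ADP-glucose pyrophosphorylase, which commits sugar to starch, had 2.60, 3.12 and 0.21 under HT and 21.3, 3.63 and 11.2 under DR (log2 difference -2.05, adjusted p = 0.72, limma). XTH32 (G9843), a xyloglucan transferase, had -2.10, TUBB5 (G26129), a beta-tubulin, -1.64, and PIP2-7 (G27911), an aquaporin, -0.93. The signs of the medians of wall hydrolases, ethylene response factors, cellulose genes, raffinose genes, polyphenol oxidases and the methyl cycle turned under at least 5 of the 27 alternatives, and no direction is given for them.

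**Figure D4:**
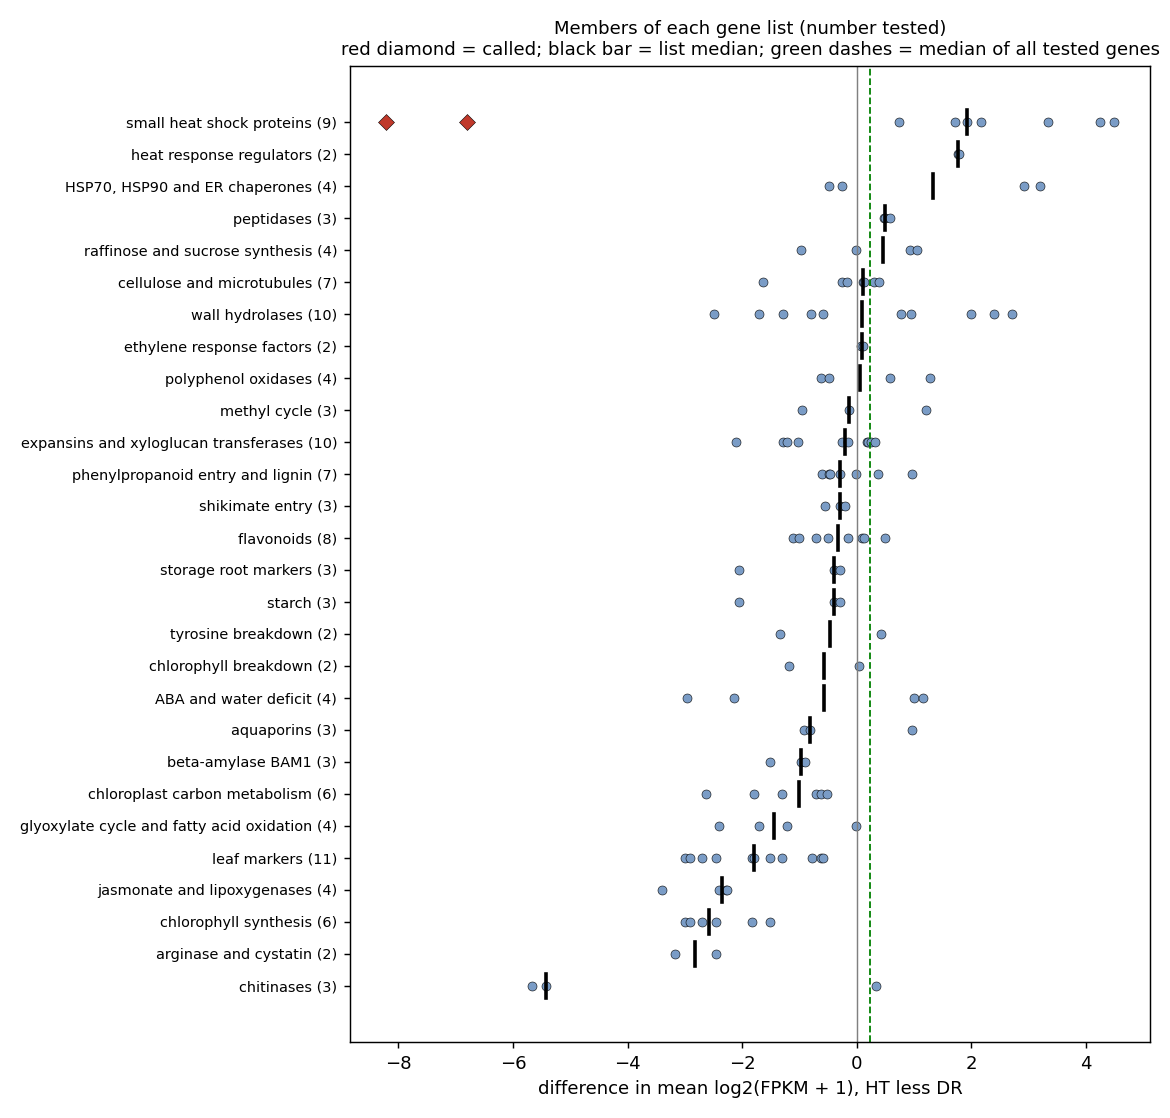
Log2 difference (mean log2(FPKM + 1) under HT less that under DR) of each tested member of the 28 gene lists, with the list median as a black bar and the median of all 12295 genes (0.23) as a dashed line. The 2 called genes (red diamonds) are the SHSP-2 copies at -8.21 and -6.80, on the side opposite to the other small heat shock proteins, and chitinases (median -5.42) and chlorophyll synthesis (-2.58) lie on the drought side.

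The place of DH was followed in the lists that lay apart. It is a description and no independent check. The study chose the listed genes on its libraries, DH among them, and the DH libraries also counted in the filter and the spread. For all 6 genes of chlorophyll synthesis the DH mean was nearer to HT than to DR, with CRD1 (G16398) at 44.1, 15.8 and 286 FPKM. For all 3 chitinases it was nearer to DR, with CHIT1B (G47455) at 721, 14.4 and 532. Over all genes tested, the DH mean was nearer to HT in 41.7% and to DR in 58.3%. For the chitinase EP3 the DH mean (1.59) lay below those of both HT (2.36) and DR (2.02), so its place says little. The counts for chlorophyll synthesis and chitinases were the same with upper-quartile and median-of-ratios scaling. Of the 9 small heat shock proteins, 5 had DH nearer to HT, and 8 with either of these scalings.

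Over all genes listed by the 6 libraries, 488 of 11208 had every HT library above every DR library (4.35%) and 711 the reverse (6.34%). Upper-quartile scaling gave 440 and 1127, and the median of ratios 616 and 1011. The DH libraries stood apart in composition: the 10 most abundant genes held 57.0%, 89.7% and 77.4% of the FPKM in DH1 to DH3, and 22706, 13653 and 15352 genes were above 0. For the 488 genes higher under HT, the DH mean was nearer to DR in 82.0%, beside 58.3% of all tested genes. The sets were taken again under each scaling. With upper-quartile scaling the share was 42.7% of 440 genes, beside 43.5%, and with the median of ratios 49.0% of 616, beside 45.9%. For the 711 genes higher under DR, the DH mean was nearer to HT in 82.8%, beside 41.7%. With these scalings the share was 65.3% of 1127 genes, beside 56.5%, and 67.1% of 1011, beside 54.1%. The place of DH among the genes higher under heat therefore turned on the scaling, which also changed the genes in the set. Without DH1, DH2 or DH3 the unscaled shares were 95.1%, 73.4% and 66.8% for the genes higher under HT and 92.0%, 63.3% and 85.4% for those higher under DR. The rescaled shares and those without a DH library were added after the data were seen.

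**Figure D5:**
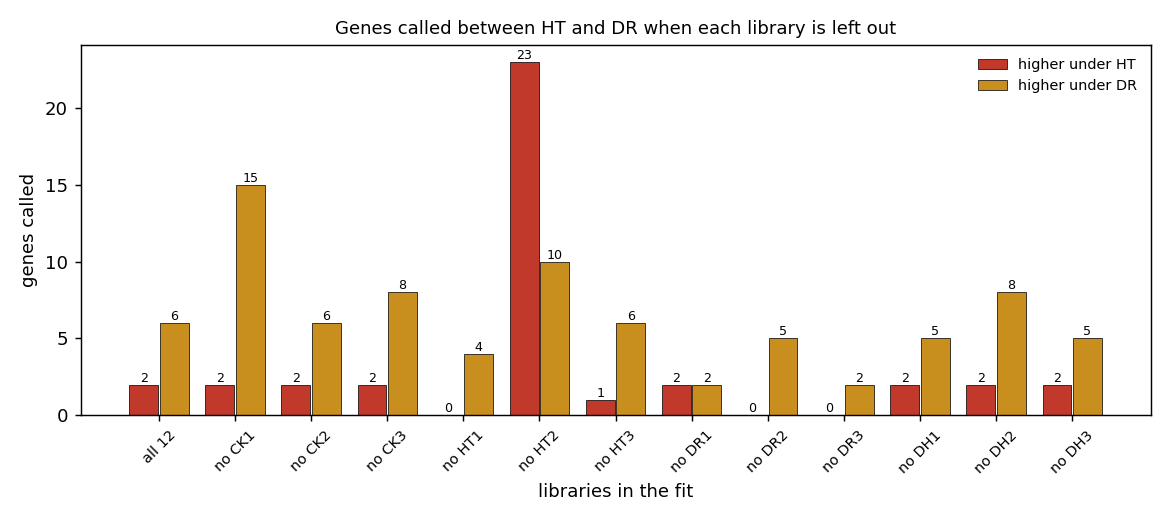
Number of genes called higher under HT (red) and higher under DR (yellow) with all 12 libraries and with each library left out of the fit in turn. The counts run from 0 to 23 for HT and from 2 to 15 for DR, and the highest HT count, 23, is the fit without HT2.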

How the data were processed

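RNA of leaves and storage roots, pooled over tissues and sampling times, was sequenced in 12 libraries, 3 for each of CK, HT, DR and DH, and groups were taken from the sample titles. The authors aligned the reads with HISAT2 (2.0.4), used StringTie (1.3.4d) for assembly and quantification, and deposited a table of FPKM by gene for each library; the labels name cutadapt (1.9) for trimming, whereas the paper's methods name Trimmomatic. The FPKM deposited by the authors are already scaled for transcript length and library size, so that a few very abundant genes lower the values of all others. No read counts were used, so no count model was run and counting error cannot be given.

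The limma package (3.58.1, R 4.3.3) was fitted to log2(FPKM + 1) of all 12 libraries together, with two-sided moderated tests and a prior that follows the mean level (eBayes, trend). It took in the 12295 genes that reached an FPKM of 1 in 3 or more libraries. The 1087 genes that DR2 does not list were fitted on 11 libraries. Adjustment for multiple tests was by Benjamini-Hochberg over these genes. Calls needed an adjusted p below 0.05 together with a log2 difference larger than 1 in size, and 95% intervals came from the same fit. The fit was tested on simulated data. Summaries used Python 3.11.15, pandas 2.3.3, numpy 2.4.6 and scipy 1.17.1.

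Gene symbols came from supplementary tables of the study, which name 228 IDs, and no genome was used. The genes named are all called genes with a symbol, the 2 largest differences without a symbol in each direction, the 10 genes with a symbol and smallest p in each direction and up to 3 members (all, for lists of up to 4) of each of 28 lists; further list members were named after their values were seen. The comparison and the lists were chosen with earlier results of these data known, and the study selected the listed genes on these libraries by their difference from CK. Alternatives covered the libraries fitted, pseudocount, filter, scaling, replicate block, weights, prior, threshold and each library left out.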

Additional observations from a re-analysis of the deposited data

How the results depend on the processing

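The number of genes called between HT and DR was not stable. For genes higher under HT (2), the count was 1 with a pseudocount of 0.01, 0 without a filter on low values (limma, 1267 genes with an unadjusted p under 0.05), 1 with a filter of 6 libraries and 0 with only the genes that all 12 libraries list. For genes higher under DR (6), it was 21 with a fit of only the HT and DR libraries, 2 with a pseudocount of 0.01, 3 without a filter, 1 with a filter of 6 libraries, 3 with the filter applied within HT and DR, and 0 with only the genes listed in all 12 libraries. Scaling gave 17 with the upper quartile, 3 with quantiles, 10 without the 10 most abundant genes and 10 with the median of ratios, and array weights gave 18. Both SHSP-2 copies were untested with the filter of 6 libraries, the filter within HT and DR, the genes listed in all 12 libraries and quantile scaling. With 1 library left out, 0 to 23 genes were higher under HT and 2 to 15 under DR. The highest counts came without HT2 (23) and without CK1 (15); no gene was higher under HT without HT1, DR2 or DR3 (limma, 570, 501 and 297 genes with an unadjusted p under 0.05). The causes were not tested.

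With the replicate number as a block, 2 genes were higher under HT and 12 under DR. The deviations of same-numbered HT and DR libraries correlated with r = -0.103, 0.022 and 0.243, so that the numbers were not taken to pair the samples.

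The median log2 difference of all genes (0.23) moved to -0.13 with upper-quartile scaling, 0.05 with quantiles and 0.03 with the median of ratios. Over 27 alternatives the list medians kept their sign for small heat shock proteins (1.25 to 3.01), HSP70 and other chaperones (0.40 to 3.06), heat regulators (1.16 to 2.17), chitinases (-6.64 to -4.00), chlorophyll synthesis (-4.41 to -1.85) and jasmonate genes (-3.18 to -2.02). Several alternatives leave the difference of a gene as it is. These are the fit of HT and DR libraries only, the other prior and the fits without a CK or DH library. They can move a median only through the genes that pass the filter. Of 89 genes followed, 21 changed sign in at least 1 alternative, all with a log2 difference of at most 0.98 in size and smaller than its SE.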

Other observations

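Of the IDs in the gene lists, 12 did not reach the filter and were not tested between HT and DR. They included SBE1 (G35317), a starch branching enzyme, at 0.19, 0.08 and 0 FPKM under HT and 0.46, 0.33 and 0.47 under DR, and the sucrose phosphate synthase SPS (G20451), at 0.17, 0.03 and 0.07 under HT and 0.42, 0.18 and 0.58 under DR. In both genes every drought library was above every heat library, at levels under 1 FPKM, and CK3 was the highest library (19.3 and 7.93). Both were picked after their values were seen.

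HSP21 (MSTRG.27569) and SHSP-2 (MSTRG.4626), small heat shock proteins that DR2 does not list, had unlike listed levels under heat: HSP21 was at 49.1 to 720 FPKM under HT and SHSP-2 at 0 to 0.17, while both were above 72 in DR1 and DR3. The difference between these genes was not tested.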
